A study of Mus musculus with 4 samples.

Results

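The genes described here are 10 genes of the regulated secretory pathway: the prohormone processing enzymes Pcsk1, Pcsk2, Cpe and Pam, the convertase inhibitor gene Pcsk1n, and the granins Chga, Chgb, Scg2, Scg3 and Vgf. They were taken by gene symbol from the 23991 symbols listed for each library, and all 10 were found, each as a single entry. Every library was made from amygdala, both sides, of mice of 1 genotype, NpyCre/+;TRAPlox/lox. In translating ribosome affinity purification (TRAP) tagged ribosomes are pulled down with the RNA they hold; the tag was limited to cells with Cre, expressed under control of the neuropeptide Y gene (Npy). The immunoprecipitate (IP) and the total input RNA each gave 2 libraries, and each library held RNA of 3 pooled mice. The labels give no treatment, age or sex, and whether every tagged cell expressed Npy at sampling was not tested. Levels are FPKM (fragments per kilobase of transcript per 1000000 mapped reads), so they can be set side by side between genes.

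Neuropeptides are made as larger precursors that are sorted into dense-core vesicles and cut there. Convertases cut after pairs of basic residues, a carboxypeptidase trims the basic residues left behind, and an amidating enzyme finishes peptides such as neuropeptide Y that need a C-terminal amide. Granins are acidic proteins of the same vesicles. They help to gather cargo, and several are themselves cut into peptides.

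The 10 genes did not move together. Scg2, Vgf, Pam, Pcsk1n and Chga rose in IP, Pcsk2, Cpe and Pcsk1 fell, and Scg3 and Chgb did not pass the test (limma on log2(FPKM + 1), IP minus input, adjusted p threshold 0.05 over all genes tested). Thus 5 of 10 were higher, where 37.0% of the 12416 genes tested were, and 3 of 10 were lower, where 33.9% were. Being called was common, since 70.9% of all genes tested were called in either direction, so the count of 8 called genes is close to the background. The size of the rises stood further out: 3 of the 10 genes, Scg2, Vgf and Pam, rose by at least 1 on the log2 scale, against 3.48% of all genes tested. This limit of 1 was chosen after seeing the data. Scg2 alone met it with each library rescaled to the same sum (1.62% of all genes, with Vgf just short of 1), and 0 of the 10 did with quantile normalization (3.08%). The median change of the 10 genes was 0.26, beside 0.03 over all genes tested. It was -0.0711 after rescaling (all genes -0.29), 0.096 with quantile normalization (all genes 0.046) and 0.11 with correction for transcript length (all genes 0.042). Over the 9 genes that passed a filter at FPKM of 5 it was 0.64 (all genes 0.14). That filter left out Pcsk1 and did not alter the change of any other of these genes. Groups did not overlap for 9 of the 10 genes and for 86.4% of all genes tested.

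**Figure D1:**
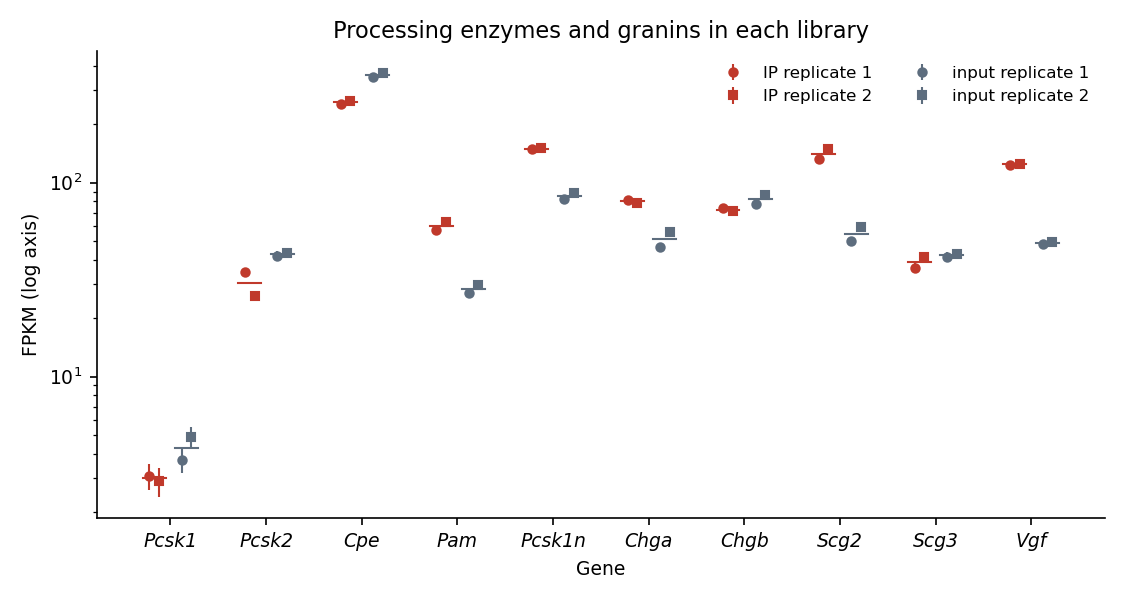
FPKM of each gene (log axis) in IP replicates 1 and 2 (red) and input replicates 1 and 2 (grey). Vertical bars are the authors' confidence limits for each library, mostly shorter than the symbol, and horizontal lines are group means. Scg2, Vgf and Pam lie apart between the groups in the upward direction, and Scg3 is the gene whose groups overlap.

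Pcsk1 and Pcsk2 encode the convertases PC1/3 and PC2, which make the first cuts in most neuropeptide precursors. Pcsk2 (chromosome 2 from 143546133 to 143816282, mm10) was at 34.6 and 26.0 FPKM in IP replicates 1 and 2, against 42.1 and 43.6 FPKM in input replicates 1 and 2. Both IP values lay below both input values, but the IP pools themselves stood apart beyond their confidence limits. The means were 30.3 ± 6.11 FPKM in IP and 42.8 ± 1.04 FPKM in input (SD, n = 2 each), a log2 change of -0.50 (SE 0.13; limma, adjusted p = 0.0119). With IP replicate 2 left out the change was -0.30. Leaving out either input library ended the call, with a change of -0.52 for replicate 1 left out and -0.47 for replicate 2. Fewer of all genes tested were called in every fit with 1 library left out. Markers of glutamatergic neurons, summed, were lower in IP replicate 2 (161.5 FPKM) than in IP replicate 1 (245 FPKM), as Pcsk2 was, and their part in its value was not tested.

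Pcsk1 (chromosome 13 from 75089987 to 75132498) was far lower in level than Pcsk2, at 3.07 and 2.90 FPKM in IP and 3.73 and 4.86 FPKM in input. The groups did not overlap, but the gap between the higher IP and the lower input library was smaller than the gap between the input pools. Its log2 change was -0.40 (SE 0.12; limma, adjusted p = 0.0219), measured with confidence limits of 12.8% to 17.1% of the value on each side. The limma call ended when input replicate 2 was left out (-0.25, adjusted p = 0.0998) and when IP replicate 2 was (-0.37, adjusted p = 0.0762). It also ended without the filter on low values (adjusted p = 0.0622), under quantile normalization (-0.10, where adjusted p was 0.505) and once changes were corrected for length of the transcript (-0.22, adjusted p = 0.146).

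The ratio of the convertases differed between pools more than between IP and input of a pool. Pcsk2 exceeded Pcsk1 by 11.3-fold in IP replicate 1 and 8.97-fold in IP replicate 2, against 11.3-fold in input replicate 1 and 8.96-fold in input replicate 2. The match within each pool is closer than the confidence limits of Pcsk1 could resolve. Both genes had the same IP to input ratio within a pool, 0.82 for each in pool 1 and 0.60 for each in pool 2.

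Pcsk1n and Scg5 are linked to these convertases. Pcsk1n encodes proSAAS, an inhibitor of PC1/3, and Scg5, which is not among the 10 genes, encodes 7B2, a chaperone and inhibitor of PC2. Pcsk1n (chromosome X from 7919822 to 7924410) was at 148.8 and 151.3 FPKM in IP and 81.9 and 88.7 FPKM in input. It rose 1.76-fold, with groups that did not overlap (log2 change 0.81, SE 0.05; limma, adjusted p = 6.54e-05). Scg5 was at 110.4 ± 0.477 FPKM in IP and 75.7 ± 3.46 FPKM in input (SD, n = 2 each), a log2 change of 0.54 (limma, adjusted p = 0.000218). The change of Scg5 was smaller, though still called, after rescaling (0.20), with quantile normalization (0.17) and with the length correction (0.18). The ratio of Pcsk1n to Pcsk1 was thus 48.5 and 52.2 in IP and 22.0 and 18.2 in input. That of Scg5 to Pcsk2 was 3.18 and 4.26 in IP and 1.86 and 1.68 in input. For both pairs the ratio of inhibitor to convertase transcript was higher in both IP libraries than in both input libraries, a description for which 2 against 2 libraries allow no exact permutation p below 0.33.

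Cpe encodes carboxypeptidase E, which removes the basic residues left by the convertases and also acts in sorting cargo. It was the most abundant of the 10 genes in every library. Cpe (chromosome 8 from 64592551 to 64693040) was at 255.0 and 265.1 FPKM in IP and 350.4 and 366.4 FPKM in input. All IP values lay below all input values, with means of 260.1 ± 7.19 FPKM in IP and 358.4 ± 11.3 FPKM in input (SD, n = 2 each), a log2 change of -0.46 (SE 0.05; limma, adjusted p = 0.000336). Its ratio of IP to input was 0.73 in pool 1 and 0.72 in pool 2. Cpe held 26.9% and 27.3% of the summed FPKM of the 10 genes in IP, against 45.6% and 44.3% in input.

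Pam encodes peptidylglycine alpha-amidating monooxygenase, the enzyme that gives neuropeptide Y and many other peptides their terminal amide. In contrast to Cpe, Pam (chromosome 1 from 97821094 to 98095632) rose, at 57.0 and 62.3 FPKM in IP and 27.0 and 29.6 FPKM in input. The fold was 2.11 in pool 1 and 2.10 in pool 2, and the log2 change was 1.05 (SE 0.07; limma, adjusted p = 6.37e-05). The ratio of Pam to Cpe was 0.22 and 0.24 in IP and 0.077 and 0.081 in input. The annotation places other transcripts inside the Pam gene, one of which, B230216N24Rik, was measured at 4.88 and 6.32 FPKM in IP and 6.37 and 6.39 FPKM in input.

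**Figure D2:**
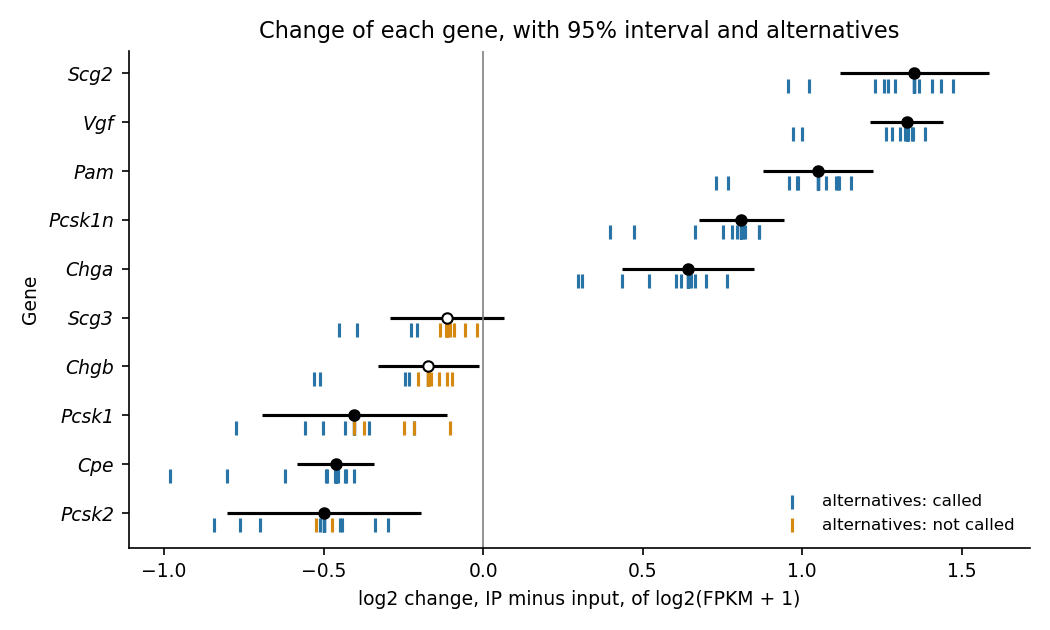
log2 change (IP minus input) of each gene with its 95% interval from limma; filled circles passed an adjusted p of 0.05 and open circles did not. Ticks below each circle give the alternatives, blue where the gene was called and orange where it was not. Scg2, Vgf, Pam, Pcsk1n and Chga stayed above 0 and were called in all 16 alternatives, and Cpe stayed below 0 and was called in all 16.

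Among the granins, Scg2 and Vgf rose most. Scg2 encodes secretogranin II, the precursor of secretoneurin, and lies on chromosome 1 from 79434669 to 79440090. It was at 132.6 and 149.0 FPKM in IP and 49.95 and 59.4 FPKM in input. Pool 2 was the higher one in both groups, beyond the confidence limits each time, yet the fold between groups was 2.65 in pool 1 and 2.51 in pool 2. The log2 change was 1.35 (SE 0.10; limma, adjusted p = 7.50e-05), above that of 98.8% of all genes tested.

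Vgf encodes a precursor of several peptides and is known as a gene induced by neurotrophins. Vgf (chromosome 5 from 137030295 to 137033351) was at 123.7 and 124.6 FPKM in IP and 48.2 and 49.6 FPKM in input. Unlike Scg2, its pools lay within each other's limits in both groups. Its log2 change was 1.33 (SE 0.05; limma, adjusted p = 1.62e-05), the smallest adjusted p among the 10 genes.

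Chromogranins A and B, encoded by Chga and Chgb, are abundant granins with a role in forming the vesicle core. Chga (chromosome 12 from 102554969 to 102565027) rose by less than Scg2 and Vgf, at 81.3 and 78.8 FPKM in IP and 46.7 and 55.5 FPKM in input. Its input pools differed beyond their limits, and the fold was 1.74 in pool 1 and 1.42 in pool 2 (log2 change 0.64, SE 0.08; limma, adjusted p = 0.000771). Chgb (chromosome 2 from 132781278 to 132795072) was at 74.3 and 71.1 FPKM in IP and 77.8 and 86.4 FPKM in input. Both IP values were the lower ones, but the log2 change of -0.17 did not pass (limma, adjusted p = 0.0525; 95% interval -0.33 to -0.01). With the replicate number as a block, which pairs each IP with the input of the same pool, limma called Chgb lower (adjusted p = 0.0426). Leaving out input replicate 1 gave the same call (-0.25, adjusted p = 0.0366). Over the alternatives its adjusted p ran from 0.00072 to 0.25. The ratio of Scg2 to Chgb was 1.78 and 2.10 in IP and 0.64 and 0.69 in input, so that Scg2 was the more abundant of the pair in IP and Chgb in input.

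Scg3 encodes secretogranin III, which binds chromogranin A and cholesterol-rich vesicle membrane. Scg3 (chromosome 9 from 75643366 to 75684056) was at 36.4 and 41.5 FPKM in IP and 41.4 and 42.8 FPKM in input. These ranges overlapped, and the log2 change of -0.11 did not pass (limma, adjusted p = 0.206; 95% interval -0.29 to 0.06). It passed as lower when IP replicate 2 was left out (-0.21; limma, adjusted p = 0.0352), under the length correction (-0.23, adjusted p = 0.0319) and under quantile normalization (-0.40, adjusted p = 0.00399).

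Some of these calls moved with the scaling between libraries. Summed FPKM was 423985 and 419349 in IP and 334759 and 335119 in input. Rescaling each library to a sum of 1000000 moved the median change of all genes by -0.32 on the log2 scale. After rescaling the same 5 genes were higher and the other 5 all lower, Chgb at -0.51 (adjusted p = 0.00072) and Scg3 at -0.45 (adjusted p = 0.00253). Among all genes, 17.9% were then higher and 53.8% lower. Set against the moved median, Chgb differed by -0.22 and Scg3 by -0.16, and Scg2 and Vgf by 1.32 and 1.29. Rescaling and quantile normalization gave log2 changes of 0.47 and 0.40 for Pcsk1n, 0.31 and 0.30 for Chga, -0.80 and -0.98 for Cpe and -0.84 and -0.76 for Pcsk2, all called.

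In IP the order of levels was Cpe, Pcsk1n, Scg2, Vgf, Chga, Chgb, Pam, Scg3, Pcsk2 and Pcsk1, and of these neighbours Pcsk1n and Scg2 alone overlapped. In input it was Cpe, Pcsk1n, Chgb, Scg2, Chga, Vgf, Pcsk2, Scg3, Pam and Pcsk1. Neighbours in that order overlapped for Pcsk1n and Chgb, for Scg2, Chga and Vgf, and for Pcsk2 and Scg3. Vgf was above 94.87% and 94.98% of the genes tested in IP and above 88.1% and 88.5% in input. Pcsk1 was above 23.7% and 22.8% of them in IP and 21.9% and 28.4% in input. The granins summed to 448 and 465 FPKM in IP and 264 and 294 FPKM in input, whereas the enzymes Pcsk1, Pcsk2, Cpe and Pam summed to 349.7 and 356.4 FPKM in IP and 423 and 444 FPKM in input.

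A few of the precursors that these enzymes cut differed by much more. Over 43 neuropeptide and related peptide precursor genes, summed FPKM was 6639 and 6700 in IP and 988 and 961 in input, and Sst, Npy and Cort made up 89.7% and 90.6% of it in IP and 47.9% and 46.4% in input. Sst, the somatostatin gene, was at 4659 ± 137 FPKM in IP and 346 ± 15.1 FPKM in input, and Npy was at 1204 ± 51.7 FPKM in IP and 102.3 ± 4.38 FPKM in input (SD, n = 2 each). Because Npy controls the Cre that marks the tagged cells, its rise is not independent of the design. For each FPKM of Cpe there were 26.0 and 25.3 FPKM of precursor in IP and 2.82 and 2.62 in input. For each FPKM of Pam there were 116.4 and 107.5 in IP and 36.6 and 32.4 in input. Without Sst, Npy and Cort the ratio to Cpe was 2.68 and 2.37 in IP and 1.47 and 1.40 in input, still higher in both IP libraries. That did not hold for Pam. The precursor sum without these genes was 1.27-fold as high in IP as in input, whereas Pam rose 2.11-fold. The ratio of that sum to Pam was thus lower in IP than in input. Of the 27 precursor genes that passed the filter on low values, 12 rose, 10 fell and 5 did not pass, with a median change of 0.05, where 37.0% of all genes were higher and 33.9% lower. Sst, Cort and Npy led with log2 changes of 3.75, 3.65 and 3.54. Pnoc, the nociceptin gene, and Cartpt rose by 2.43 and 2.30, and Avp, the vasopressin gene, fell by 2.46 on the log2 scale. After rescaling 8 were higher and 11 lower, beside 17.9% and 53.8% of all genes, and without IP replicate 1 the median was -0.18. No other precursor is named here, since the rule for naming genes took the 6 largest changes.

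**Figure D3:**
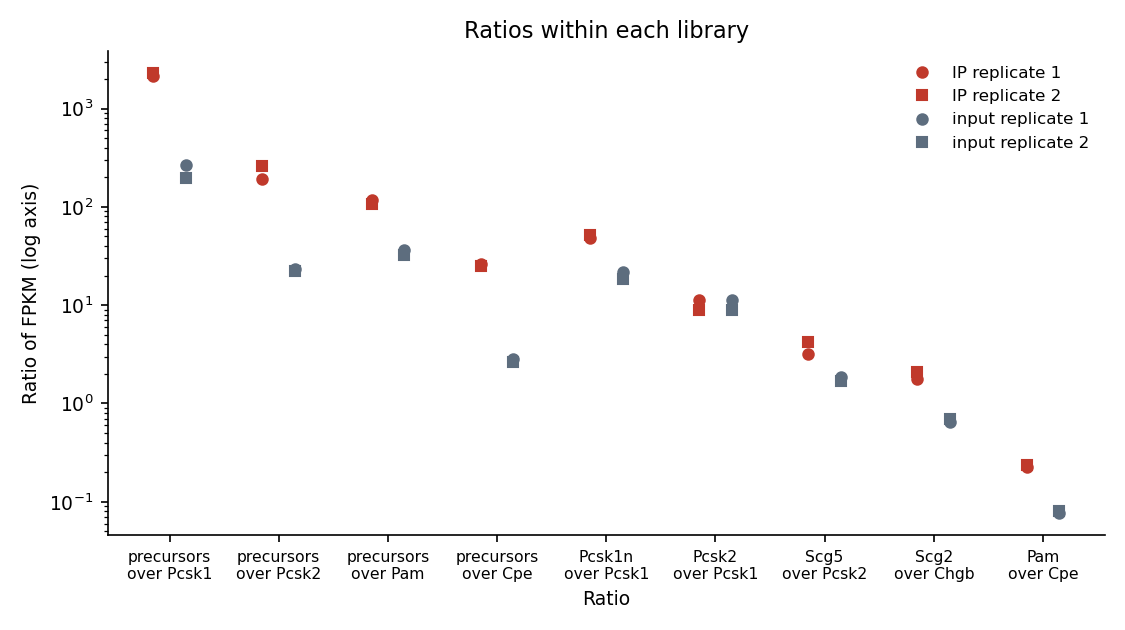
Ratios of FPKM within each library (log axis), IP in red to the left and input in grey to the right of each pair. Precursors are the summed FPKM of 43 precursor genes, of which Sst, Npy and Cort made up 89.7% and 90.6% in IP. Without these genes, which is not drawn, the ratio to Pam was lower in IP than in input. The ratio of precursors to each of Pcsk1, Pcsk2, Pam and Cpe is higher in both IP libraries than in both input libraries, while the ratio of Pcsk2 to Pcsk1 falls on the same values in IP and input of the same replicate number.

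The other processing enzymes also split. Of 20 such genes in the files, 18 passed the filter on low values, of which 8 rose, 5 fell and 5 did not pass (median change -0.09), where 37.0% of all genes were higher and 33.9% lower. After rescaling 4 were higher and 9 lower, beside 17.9% and 53.8%. Ece2, an endopeptidase gene, rose by 0.91 on the log2 scale (limma, adjusted p = 0.000737). Qpct, whose product forms the N-terminal pyroglutamate of some peptides, rose by 0.80 (limma, adjusted p = 0.000667). Cpd, which encodes the carboxypeptidase D of the trans-Golgi network, was at 3.60 ± 0.212 FPKM in IP and 7.76 ± 0.548 FPKM in input (SD, n = 2 each) and fell by 0.93 on the log2 scale, in the same direction as Cpe. Furin, the convertase of the constitutive pathway, was at 8.43 and 8.29 FPKM in IP and 6.32 and 5.97 FPKM in input and rose by 0.39 (adjusted p = 0.00313), a call that did not hold after rescaling (0.10, adjusted p = 0.278). Pcsk7, named because it is listed at 0 in IP replicate 1 alone, was at 3.23 FPKM in IP replicate 2 and at 4.92 and 4.97 FPKM in input.

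Genes of dense-core vesicle formation and release were mixed as well. Of 37 genes of this list that passed the filter on low values, 18 rose, 13 fell and 6 did not pass, with a median change of 0.11, where 37.0% of all genes tested were higher and 33.9% lower. After rescaling 7 were higher and 20 lower, beside 17.9% and 53.8% of all genes. Quantile normalization gave 7 higher and 17 lower, beside 35.3% and 30.2% of all genes. The largest changes were those of the vesicle GTPase genes Rab3b and Rab27b, at 2.11 and 1.42, of Resp18, a gene of the secretory granule, at 1.68, and of the priming factor gene Unc13b at -1.48. Resp18 reached 257 and 296 FPKM in IP and 79.7 and 92.0 FPKM in input. Ptprn and Ptprn2, which encode the vesicle membrane proteins IA-2 and phogrin, rose by 0.50 and 0.59, although Ptprn did not pass after rescaling (0.16, adjusted p = 0.0605) or with quantile normalization (0.07, adjusted p = 0.392). The CAPS genes, whose products prime dense-core vesicles for release, went opposite ways. Cadps was at 83.5 and 78.6 FPKM in IP and 45.2 and 44.9 FPKM in input (log2 change 0.83; limma, adjusted p = 5.20e-05), and Cadps2 was at 14.6 and 13.5 FPKM in IP and 19.7 and 17.7 FPKM in input (log2 change -0.39; limma, adjusted p = 0.00447).

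Peptidases that break peptides down were mixed too. Of 12 genes that passed the filter on low values, 3 rose, 3 fell and 6 did not pass, with a median change of -0.05, beside the same 37.0% and 33.9% of all genes. Lnpep and Rnpepl1, both aminopeptidase genes, fell by 0.91 and 0.79 on the log2 scale. Mme, which encodes neprilysin, and Prep, which encodes prolyl endopeptidase, rose by 0.32 and 0.23 (limma, adjusted p = 0.0382 and 0.0226). Neither call held in every fit with 1 library left out, and fewer of all genes tested were called in each of those fits too. For Mme, leaving out input replicate 2 gave 0.20 (limma, adjusted p = 0.164), and leaving out an IP library gave an adjusted p of 0.0633 (replicate 1) and 0.137 (replicate 2). For Prep, the adjusted p was 0.0787 and 0.108 with input replicate 1 or 2 left out and 0.0919 with IP replicate 1 left out. The count of higher genes in this list was 0 to 2 with 1 library left out. After rescaling 0 were higher and 9 lower, beside 17.9% and 53.8% of all genes.

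**Figure D4:**
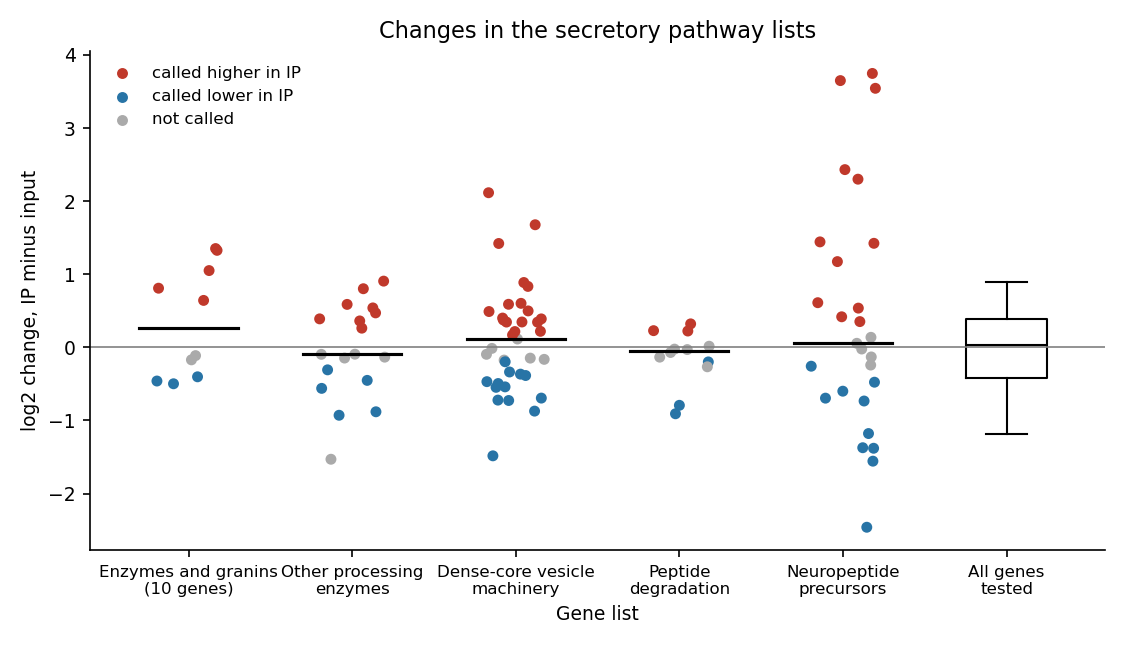
log2 change (IP minus input) of every gene of each list that passed the filter on low values, red where called higher in IP, blue where called lower and grey where not called; black bars are list medians. The box for all 12416 genes tested spans the quartiles, with whiskers from the 5th to the 95th percentile. Calls in both directions are seen in every list, and the medians of all lists lie between -0.09 and 0.26.

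A 30-base stretch around the cAMP response element TGACGTCA is shown for the 3 genes whose promoter row holds it, since these genes differed in direction between IP and input. Rows run from 250 bases before to 50 after each RefSeq start (GRCm38.p6), 5′ to 3′ on the gene's strand, and 8 of the 10 genes had one; Cpe and Vgf had none. The motif, in capitals, is its own reverse complement.
Scg2: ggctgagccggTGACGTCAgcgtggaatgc
Chgb: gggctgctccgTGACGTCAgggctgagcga
Pcsk1: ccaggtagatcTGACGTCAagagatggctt
These lie at chr1:79440076-79440105 (minus strand), chr2:132781559-132781588 (plus strand) and chr13:75089768-75089797 (plus strand). Counted from the RefSeq start, the motif begins at -68 in Scg2, -72 in Chgb and -78 in Pcsk1. GENCODE starts Scg2 and Chgb further upstream, so that there these stretches fall within the gene. The full motif thus lies at a like distance from the RefSeq start in the 3 genes, but not from the GENCODE start. The GENCODE start is 94 (Scg2), 364 (Chgb) and 31 bases (Pcsk1) further upstream. Of these genes Scg2 rose (1.35), Chgb did not pass (-0.17) and Pcsk1 fell (-0.40). The motif occurs in 1.79% of all 32851 promoter rows. Among the 344 tested genes with it, 48.5% were higher and 23.0% lower in IP, beside 37.3% and 33.1% of all 9388 tested genes with a promoter row. Its 5-base part TGACG, on either strand, lies in rows of 6 of the 8 genes and in 20.8% of all rows. Of the 3379 tested genes with this part, 42.1% were higher and 27.9% lower in IP. It stands without the full motif in Chga, which rose, in Pcsk2 (as CGTCA, from -34), which fell, and in Scg3 (from -30), which did not pass. The stretch of Chga, at chr12:102554885-102554914 (plus strand), is shown for comparison with this part in capitals.
Chga: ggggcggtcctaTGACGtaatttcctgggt

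The genes nearest to Scg2, by Euclidean distance of centred log2(FPKM + 1) profiles over the 4 libraries, were Cbln4 (distance 0.05), Cox5b (0.07) and Ndufa12 (0.09). The nearest of the 10 genes was Vgf, at 0.18. For Pcsk2, which had the lowest log2(FPKM + 1) change of the 10 genes, the nearest were Plekhg5 (0.04), Fam26e (0.05) and Herc6 (0.06), and Pcsk1 was the nearest of the 10 genes at 0.32, with 1241 genes nearer. With 4 libraries such a distance reflects little beyond the size of the change and the gap between pools.

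Markers of cell types also differed between IP and input, and their link to the changes of the 10 genes was not tested. Beside the counts below, 37.0% of all genes tested were higher and 33.9% lower. All 9 GABAergic neuron markers rose (median change 2.12), with a summed level of 1271 and 1392 FPKM in IP and 309 and 311 in input. Of 9 pan-neuronal markers 5 rose and 2 fell, with a summed level of 4157 and 3864 FPKM in IP and 3177 and 3164 in input. Their median change was 0.23, where rescaling moved the median of all genes by -0.32. Of 8 glutamatergic neuron markers 6 fell, and the sum was 245 and 161.5 FPKM in IP and 402 and 415 in input. Glial markers fell in 9 of 10 astrocyte, 9 of 9 oligodendrocyte and 9 of 9 microglia genes, with sums of 142.6 and 187.6, 113.0 and 127.3, and 9.24 and 9.52 FPKM in IP. In input these sums were 514 and 567, 538 and 497, and 59.8 and 53.9 FPKM. Slc7a10 of the astrocyte list was at 0 in both IP libraries. Gfap of the same list did not pass, at 33.0 and 50.1 FPKM in IP and 38.2 and 51.9 FPKM in input. All 6 tested endothelial and mural markers fell, and the summed level of choroid plexus markers separated the pools, at 12.9 and 3.86 FPKM in IP and 181.7 and 13.3 FPKM in input. Some of the 10 genes are also known from astrocytes, and the part of glia in the values of any of the 10 was not tested. In these bulk samples fewer cells of a type and less RNA per cell cannot be told apart. IP holds ribosome-bound RNA and input total RNA, so the share of a transcript on ribosomes cannot be told apart from these either. Untagged background in the pulldown was not measured here.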

How the data were processed

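RNA of 2 IP and 2 input libraries (3 mice pooled and 200 ng of RNA each) gave single-end reads of 100 bp. TopHat aligned them to mm10, per the submitters' processing notes and design text (versions not stated). The deposited values are the authors' Cufflinks FPKM per gene with confidence limits, per the file headers. How libraries were scaled to each other, and any strand setting, are not given in the sources used here. Read totals are not given. The confidence limits had a median half-width of 20.6% to 22.9% of the value at FPKM of 1 to 2, and cover counting error within a library.

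Groups came from sample titles; the source description of IP replicate 2 gives replicate 1. Each IP has a corresponding input per the design text, so numbers pair the samples; deviations of IP and input replicate 1 from their group means correlated at 0.16 across genes. P-values measure only the spread between these pools. No entries at FPKM of at least 5 were identical between replicates.

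Of 24490 entries, 8 with a failed status and 1287 with small RNA names were left out, and 1 entry, the highest, stood for each symbol. The test covered 12416 genes, each at an FPKM of 1 or more in at least 2 libraries, with limma 3.58.1 (R 4.3.3), lmFit and eBayes with trend, on log2(FPKM + 1), two-sided, without a block, with Benjamini-Hochberg adjustment. This scale understates changes of low genes. The function was tested on simulated data. Folds are ratios of FPKM. Tables and figures used Python 3.11.15, pandas 2.3.3, numpy 2.4.6 and matplotlib 3.10.9. Gene coordinates are those of the files, 1-based. Promoters are RefSeq's (GRCm38.p6), overlaps and transcript lengths GENCODE's.

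The genes and lists were chosen with earlier results of these data known. Named are the 10 genes, Npy, Sst, Scg5, Furin, Ptprn, Ptprn2, Cadps and Cadps2, the 4 largest non-overlapping called changes of each list (6 for precursors), and the 3 nearest profiles of the genes with the largest rise and fall. One gene named by this rule is not reported here. The 16 alternatives were pseudocounts of 0.1 and 5, no filter and a filter at 5, quantile normalization, rescaling, size factors, robust eBayes and eBayes without trend, the replicate block, summed entries, a length correction, and each library left out.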

Additional observations from a re-analysis of the deposited data

How the results depend on the processing

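Of 159 refits of the 10 genes under the alternatives, 142 kept direction and side of the threshold, 7 lost the call (Pcsk1 and Pcsk2), 10 gained one (Scg3 and Chgb) and 0 changed sign. The number of the 10 genes called higher was 5 in every alternative. The number called lower was 5 after rescaling, against 3 as reported. Without input replicate 2, Pcsk1 and Pcsk2 both lost the call, at changes of -0.25 and -0.47. Fewer of all genes tested were called lower as well in each fit with 1 library left out. Genes higher by at least 1 on the log2 scale numbered 1 after rescaling and 0 with quantile normalization, and 2 to 3 with 1 library left out. The median of the 10 genes was -0.0711 after rescaling, 0.096 with quantile normalization, 0.11 with length correction and 0.64 with a filter at FPKM of 5. The medians over all genes tested were -0.29, 0.046, 0.042 and 0.14 in the same order. Rescaling also gave 4 higher and 9 lower other processing enzymes (median -0.43), 7 and 20 vesicle genes (median -0.22), 0 and 9 peptidases (median -0.38), and a precursor median of -0.28, with Prep at -0.0838. Quantile normalization gave 7 higher vesicle genes (median -0.15) and an enzyme median of 0.00988. A filter at FPKM of 5, which tests fewer genes, gave 2 lower other enzymes (median 0.26) and 4 lower precursors. Of all 9010 genes tested under that filter 2437 were lower, against 4205 of 12416 as reported. Their median change was 0.14 under that filter. Length correction gave medians of 0.0317 for other enzymes, 0.0530 for peptidases and -0.23 for precursors. The precursor median was -0.0045 without a filter and -0.18 to 0.29 with 1 library left out. Higher peptidases numbered 0 to 2 with 1 library left out. The replicate block, with the number of lower genes at 4, changed no other call among the 10 genes than that of Chgb (adjusted p = 0.0426). Elsewhere the cause was not tested. Of 475 refits of the other named genes, 449 kept direction and call, 25 lost the call and 1 changed sign. Depth limits Pcsk1 most, with confidence limits of 12.8% to 17.1% of its value.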
